A study of Mus musculus with 12 samples.

Results

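The genes of the urea cycle and of amino acid breakdown were examined in liver RNA of mice given low-dose penicillin. The list held 40 genes, chosen by pathway. A member was measured where the platform annotation gave a probeset to that gene alone and where the mean log2 intensity of its brightest probeset was at least 4.73, the median over non-control probesets, which held for 36 of the 40 among 11899 genes tested. Gls2, Acmsd, Sds and Sdsl were named alone by 0 probesets and are not analysed here. The lowest mean among the measured members was that of Bcat2, at 4.94, followed by Ass1 at 7.17, and 0 of the 40 lost their place through a low level. The study concerned gut bacteria and body fat in young mice under subtherapeutic antibiotics. Male C57BL/6 mice, an inbred strain bought from a supplier, either drank water with low-dose penicillin from weaning (6 mice) or received no antibiotic (6 mice), and gave liver tissue 7 weeks into the intervention. Each mouse gave 1 Affymetrix array, read here as log2 intensity, on which a difference of 1 is a 2-fold change. The sources used here give neither the dose nor the cages nor the hour of collection, so an effect of a shared cage and one of penicillin cannot be told apart.

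Amino acids that are not used for protein lose their nitrogen in the liver. Aminotransferases pass the amino group to glutamate, glutamate dehydrogenase releases it as ammonia, and the urea cycle, which runs partly in mitochondria and partly in the cytosol, binds ammonia in urea. The carbon skeletons go through separate routes for tyrosine, tryptophan, histidine, proline, lysine and the branched-chain amino acids, and end in intermediates used for energy, glucose or ketone bodies. Most of these enzymes are made in hepatocytes around the portal vein, whereas glutamine synthetase and ornithine aminotransferase are known from hepatocytes next to the central vein. Several of the enzymes, among them tyrosine aminotransferase, are known to follow hormones, feeding and the time of day.

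Any pair of arrays correlated at 0.980 to 0.997 over genes, and 0 pairs held the same values. Hepatocyte markers were high throughout, with the mean log2 level of 6 of 8 listed markers at 14.23 to 14.34 in controls and 14.23 to 14.27 with penicillin. Immediate early genes, which cells switch on within minutes, were high in control 1, control 3 and control 5, whose mean deviation over 12 such genes was 2.08, 2.14 and 1.51, against -0.89 to -0.25 on the other 9 arrays. Control 6, penicillin 1, penicillin 5 and penicillin 6 stood apart by the clock output gene Dbp, at 11.96, 11.96, 12.05 and 12.05 in log2 intensity, against 6.44 to 10.68 on the others. Control 6 also had the highest acute phase genes, with a mean deviation of 1.86. The values without the 3 arrays with high immediate early genes, or without the 4 arrays with the highest Dbp, are given beside the results they moved most.

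The comparison asks which of these enzymes differed in RNA level between treated and untreated mice. The levels of the 36 measured enzymes were close between the groups: 26 were higher with penicillin and 10 lower, and the median difference on the log2 scale was 0.04, against 0.0064 over all genes. The members' median was 0.067 with the immediate early score as a covariate and 0.060 when control 1, control 3 and control 5 were left out. That score ran from -0.89 to -0.62 with penicillin and from -0.81 to 2.14 in controls. It is therefore confounded in part with the groups, and values adjusted for it, here and below, do not isolate an effect of penicillin. Of the 11899 genes, 6278 (52.8%) were higher. The alanine aminotransferases Gpt and Gpt2, the proline dehydrogenase Prodh, the branched-chain dehydrogenase subunit Bckdha and the isovaleryl-CoA dehydrogenase Ivd had the smallest p-values, all on the higher side, by 0.12 to 0.24. With limma, 0 of 36 members passed at an adjusted p of 0.05, as did 0 of all genes (0%), and limma with an intensity trend and robust variances also called 0. At an unadjusted p under 0.05 limma had 5 members (13.9%), 5 higher and 0 lower, beside 950 of all genes (7.98%), 515 higher (4.33%) and 435 lower (3.66%). This count of 5 rested on single arrays: it was 0 without control 5, 1 without control 4, penicillin 1 or penicillin 6, 2 without penicillin 2, 3 without control 1, control 3 or penicillin 5, and 4 or 5 without any other array. Without control 1, control 3 and control 5 together it was 2, and 3 without the 4 arrays with the highest Dbp. For 0 of 36 members did every penicillin array lie above every control (0.261% of all genes) or below (0.151% of all genes).

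For many of the enzymes the interval bounded the difference in intensity. The 95% interval of the difference reached, in the median, 0.14 to either side of it, and for 23 of 36 members it lay within a 1.2-fold change in either direction (0.26 on the log2 scale). The standard deviation over all 12 arrays was below the median of all genes (0.15) for 24 members. It was smallest for Arg1 (0.042), Cps1 (0.049) and Haao (0.050) and largest for Ass1 (0.80), Got1 (0.45), Tat (0.38) and Hal (0.32). The mean level of the members was 11.52 to 11.68 in controls, against 7.76 to 7.82 over all genes, and the spreads were not matched for level. Whether intensity follows RNA as closely at such high levels was not tested, and the share of all genes with intervals this narrow was not computed. A piece of liver holds several cell types, so fewer hepatocytes and less RNA per hepatocyte cannot be told apart in these values.

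**Figure D1:**
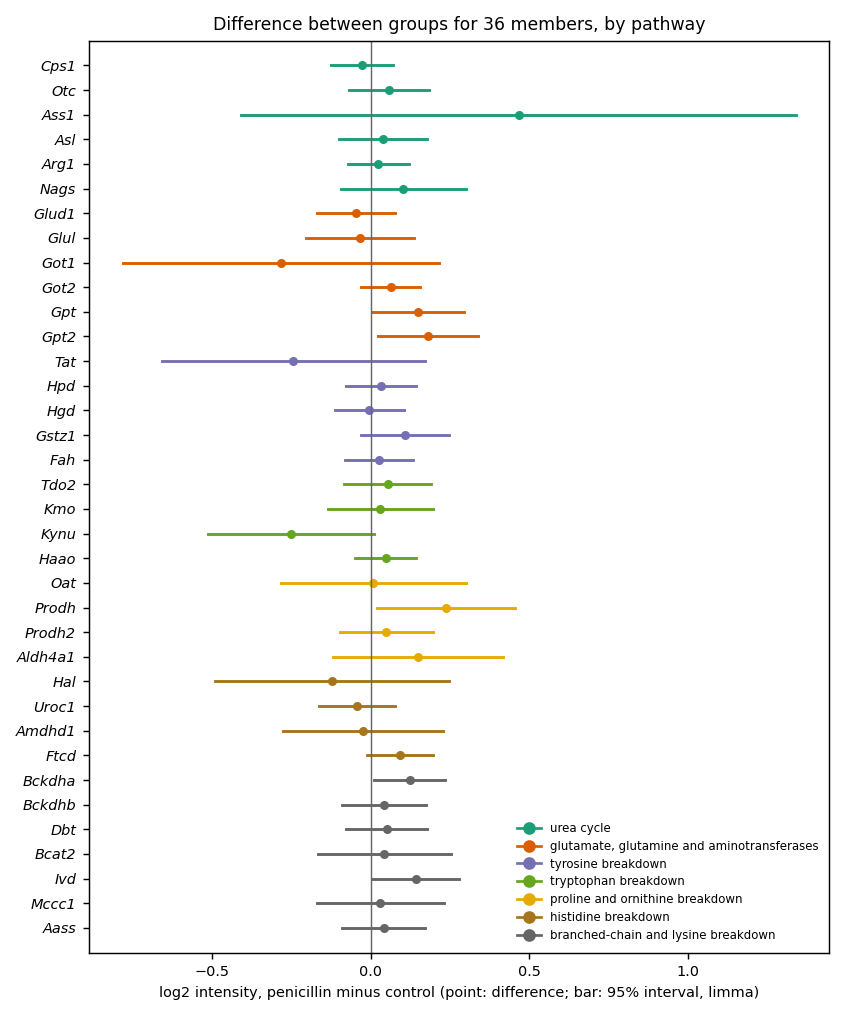
Difference in log2 intensity, penicillin minus control, for the 36 measured members in order of pathway (horizontal axis; point: difference, bar: 95% interval from limma, 6 arrays against 6). The bars of 31 members cross 0, and those of Gpt, Gpt2, Prodh, Bckdha and Ivd lie just above it.

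Of the 6 enzymes of the urea cycle, 5 were higher and 1 lower, with a median difference of 0.048, and 0 reached an unadjusted p of 0.05. Cps1, the carbamoyl phosphate synthetase that brings ammonia into the cycle, stood at 14.23, 14.17, 14.19, 14.11, 14.17 and 14.10 in controls 1 to 6 and at 14.18, 14.14, 14.10, 14.16, 14.05 and 14.17 in penicillin 1 to 6. The groups overlapped almost fully, and the difference was -0.027 (95% interval -0.13 to 0.072, adjusted p = 0.923 with limma), or 0.0096 without control 1, control 3 and control 5. Otc, which joins carbamoyl phosphate to ornithine, differed by 0.058 (95% interval -0.069 to 0.18), and its other probesets by 0.063 and 0.052. Without control 6, penicillin 1, penicillin 5 and penicillin 6 the difference of Otc was -0.0039, and 0.13 without control 1, control 3 and control 5. Asl, which splits argininosuccinate, differed by 0.038 and Arg1, the arginase that releases urea, by 0.025 (95% interval -0.070 to 0.12). Nags, which makes the activator that Cps1 needs, was at 9.26 to 9.53 in controls and 9.25 to 9.71 with penicillin, a difference of 0.10 (95% interval -0.094 to 0.30). This value moved both ways with the arrays used: it was 0.0045 without control 1, control 3 and control 5 and 0.29 without the 4 arrays with the highest Dbp. With limma the latter had an adjusted p of 0.588 and an unadjusted p of 0.0058.

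Ass1 joins citrulline to aspartate, and the probeset annotated to it alone was the least even of those used for the members. This probeset stood at 6.47, 8.75, 5.87, 6.21, 7.36 and 6.93 in controls 1 to 6 and at 7.92, 7.59, 7.83, 7.19, 6.89 and 6.98 in penicillin 1 to 6. Control 2 was the highest of all arrays and control 3 the lowest, so that the controls enclosed the penicillin values. The difference of 0.47 had a 95% interval of -0.41 to 1.34 (adjusted p = 0.824 with limma), and it was 0.83 without control 2 and 0.25 without control 3. It was 0.058 with the immediate early score as a covariate and 0.10 when control 1, control 3 and control 5 were left out. A brighter probeset, which the annotation gives to Ass1 and Gm5424 together, did not repeat this spread. It stood at 12.79 to 13.35 over the 12 arrays, with a difference of -0.010 (SE 0.12). That probeset names 2 genes, so its level is credited to neither. It was looked at after the values of the former probeset were seen.

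Of the 6 measured enzymes that handle glutamate, glutamine and amino group transfer, 3 were higher and 3 lower, with a median difference of 0.014, or 0.068 without control 1, control 3 and control 5. Gpt, the cytosolic alanine aminotransferase, stood at 11.68, 11.68, 11.54, 11.51, 11.59 and 11.73 in controls 1 to 6 and at 11.99, 11.82, 11.65, 11.69, 11.67 and 11.80 in penicillin 1 to 6. Penicillin 1 was the highest array, and 3 penicillin arrays lay inside the control range. The means were 11.77 ± 0.13 with penicillin and 11.62 ± 0.085 in controls (SD, n = 6). The difference was 0.15 (SE 0.067, 95% interval 0.0042 to 0.29, adjusted p = 0.617 with limma), or 0.11 without penicillin 1. Gpt2, its mitochondrial counterpart, stood at 11.68, 11.72, 11.86, 11.71, 11.75 and 12.05 in controls 1 to 6 and at 11.99, 11.96, 11.87, 11.87, 12.14 and 12.02 in penicillin 1 to 6. Control 6 lay above 5 of the 6 penicillin arrays, while the other controls were below the lowest of them, and the difference was 0.18 (95% interval 0.022 to 0.34, adjusted p = 0.588 with limma), or 0.23 without control 6. The further probesets of both genes differed in the same direction, by 0.27 for Gpt and by 0.041 to 0.16 for Gpt2. The brightest probesets of both are of the kind whose probes can match more than 1 transcript. Without control 1, control 3 and control 5 the differences were 0.13 for Gpt and 0.15 for Gpt2.

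The aspartate aminotransferases differed in their spread. Got1, the cytosolic enzyme, stood at 12.81, 12.02, 12.80, 11.62, 12.74 and 12.50 in controls 1 to 6 and at 12.76, 12.08, 11.89, 12.09, 11.59 and 12.37 in penicillin 1 to 6. The highest arrays were control 1, control 3, penicillin 1 and control 5, and the lowest were penicillin 5 and control 4, so both groups spanned nearly the whole range. The difference of -0.28 (95% interval -0.78 to 0.22) turned to 0.086 without control 1, control 3 and control 5, the arrays with high immediate early genes, and to 0.19 with the immediate early score as a covariate. Got2, the mitochondrial enzyme, was among the steadiest members, at 12.72 to 12.84 in controls and 12.82 to 12.92 with penicillin, and differed by 0.063 (95% interval -0.031 to 0.16). Glud1, which releases ammonia from glutamate, differed by -0.046 on its brighter probeset and by -0.085 on the other. Glul, the glutamine synthetase that binds ammonia left over from the urea cycle, stood at 12.34, 12.77, 12.53, 12.52, 12.36 and 12.62 in controls 1 to 6 and at 12.60, 12.50, 12.49, 12.29, 12.53 and 12.52 in penicillin 1 to 6. Both the highest and the next lowest arrays were controls, and the difference of -0.034 (95% interval -0.20 to 0.14) was 0.015 without control 2 and -0.15 without control 1, control 3 and control 5.

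The 5 enzymes of tyrosine breakdown had a median difference of 0.027, with 3 higher and 2 lower. Tat, the tyrosine aminotransferase that starts the route, stood at 13.23, 13.09, 13.22, 13.02, 13.51 and 13.17 in controls 1 to 6 and at 13.60, 12.97, 13.37, 12.98, 12.21 and 12.65 in penicillin 1 to 6. Penicillin 1 was the highest array and penicillin 5 and penicillin 6 the lowest, while the controls lay between them. The standard deviation was 0.50 with penicillin and 0.17 in controls, and the difference of -0.24 (95% interval -0.66 to 0.17, adjusted p = 0.805 with limma) was -0.093 without penicillin 5 and -0.37 without penicillin 1. All 3 of these penicillin arrays were among those with the highest Dbp, though Tat was highest in 1 of them and lowest in the others. Without them and control 6 the difference was -0.11, and without control 1, control 3 and control 5 it was -0.13. The enzymes that follow Tat were even. Hpd and Hgd, the dioxygenases of the route, differed by 0.033 and -0.0034, and Fah, its last enzyme, by 0.027, each with a 95% interval within 0.15 of 0. The sign of Hgd turned under both other scalings (0.015 after quantile normalization, 0.0028 after centring). A dimmer probeset of Hgd, at a mean of 7.55, differed by 0.43 (SE 0.40). Gstz1, the maleylacetoacetate isomerase, stood at 12.42, 12.26, 12.41, 12.33, 12.55 and 12.55 in controls 1 to 6 and at 12.67, 12.55, 12.45, 12.44, 12.56 and 12.50 in penicillin 1 to 6. Controls 1 to 4 were below every penicillin array and control 5 and control 6 inside the penicillin range, with a difference of 0.11 (95% interval -0.030 to 0.25, adjusted p = 0.720 with limma).

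Among 4 measured enzymes of tryptophan breakdown, 3 were higher and 1 lower. Kynu, the kynureninase, was the member with the smallest p on the lower side. It stood at 10.89, 10.53, 10.83, 10.53, 10.92 and 10.25 in controls 1 to 6 and at 10.49, 10.49, 10.55, 10.56, 10.22 and 10.14 in penicillin 1 to 6. The highest values were those of control 5, control 1 and control 3, the arrays with high immediate early genes. The lowest were those of penicillin 6, penicillin 5 and control 6, which had high Dbp, but penicillin 1, also with high Dbp, stood at 10.49. The difference of -0.25 (SE 0.12, 95% interval -0.51 to 0.010, adjusted p = 0.647 with limma) was -0.029 without control 1, control 3 and control 5, and a dimmer probeset gave -0.20. Tdo2, the dioxygenase that opens the route in liver, differed by 0.054 (95% interval -0.082 to 0.19) and its other probesets by 0.072 and 0.096. Its sign turned without control 6, penicillin 1, penicillin 5 and penicillin 6 (-0.014), and its difference was 0.12 without control 1, control 3 and control 5. Kmo, the kynurenine hydroxylase, differed by 0.031 (-0.041 without those 3 controls) and Haao, the hydroxyanthranilate dioxygenase, by 0.047 (95% interval -0.049 to 0.14).

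All 4 genes of proline and ornithine breakdown were higher, with a median difference of 0.099. The median was 0.23 with the immediate early score as a covariate and 0.18 when control 1, control 3 and control 5 were left out. Prodh, the mitochondrial proline dehydrogenase, stood at 10.70, 10.94, 10.74, 10.53, 10.60 and 11.09 in controls 1 to 6 and at 11.23, 11.11, 10.85, 10.88, 10.91 and 11.03 in penicillin 1 to 6. Of the controls, control 2 and control 6 lay within the penicillin range and the other 4 below it. Means were 11.00 ± 0.15 with penicillin and 10.76 ± 0.21 in controls (SD, n = 6). The difference was 0.24 (SE 0.10, 95% interval 0.019 to 0.45, adjusted p = 0.594 with limma), a 1.18-fold ratio. It was 0.15 without control 1, control 3 and control 5. Prodh2, which acts on hydroxyproline, differed by 0.049 (95% interval -0.098 to 0.20), or 0.12 without those 3 controls. Aldh4a1, which takes the product of proline dehydrogenase to glutamate, was at 8.52 to 9.13 in controls and 8.76 to 9.21 with penicillin and differed by 0.15 (95% interval -0.12 to 0.42), or 0.30 without control 1, control 3 and control 5. Oat, the ornithine aminotransferase, ranged over 12.87 to 13.65 in controls and 13.13 to 13.72 with penicillin and differed by 0.0090 (95% interval -0.28 to 0.30). Its lowest array was control 4 and its highest penicillin 1. Without control 6, penicillin 1, penicillin 5 and penicillin 6 the difference was -0.012, and without control 1, control 3 and control 5 it was 0.22.

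All 7 genes of branched-chain and lysine breakdown were higher, by 0.030 to 0.14, with a median of 0.043, and all 7 were also higher after quantile normalization and after centring. Bckdha, a subunit of the dehydrogenase complex that commits branched-chain keto acids to breakdown, stood at 11.25, 11.18, 11.24, 11.13, 11.12 and 11.14 in controls 1 to 6 and at 11.39, 11.24, 11.29, 11.19, 11.32 and 11.38 in penicillin 1 to 6. Penicillin 2 and penicillin 4 lay within the control range and the other 4 above it. The means were 11.30 ± 0.078 with penicillin and 11.18 ± 0.056 in controls (SD, n = 6). The difference was 0.12 (95% interval 0.012 to 0.24, adjusted p = 0.593 with limma). It was 0.055 without the 4 arrays with the highest Dbp. Bckdhb and Dbt, which encode other subunits of the same complex, differed by 0.041 (95% interval -0.091 to 0.17) and 0.051 (95% interval -0.076 to 0.18). Ivd, the isovaleryl-CoA dehydrogenase of leucine breakdown, stood at 10.79, 10.73, 10.83, 10.71, 10.77 and 10.56 in controls 1 to 6 and at 10.96, 10.98, 10.96, 10.82, 10.73 and 10.80 in penicillin 1 to 6. Penicillin 1, penicillin 2 and penicillin 3 were above every control and the other 3 were not. The difference was 0.14 (95% interval 0.0055 to 0.28, adjusted p = 0.614 with limma), but a dimmer probeset of Ivd gave 0.010 (SE 0.081). Mccc1, the biotin-bearing subunit of methylcrotonyl-CoA carboxylase, differed by 0.030, which was -0.028 without control 6 and -0.023 with array weights, but 0.15 without control 1, control 3 and control 5. Aass, which starts lysine breakdown, differed by 0.042 (95% interval -0.089 to 0.17). Bcat2, the mitochondrial branched-chain aminotransferase, is known as an enzyme of tissues other than liver. Its values of 4.76 to 5.10 in controls and 4.71 to 5.30 with penicillin lay near the limit of the filter, where signal and background are hard to separate. Its difference of 0.043 was -0.0074 without control 1, control 3 and control 5.

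**Figure D2:**
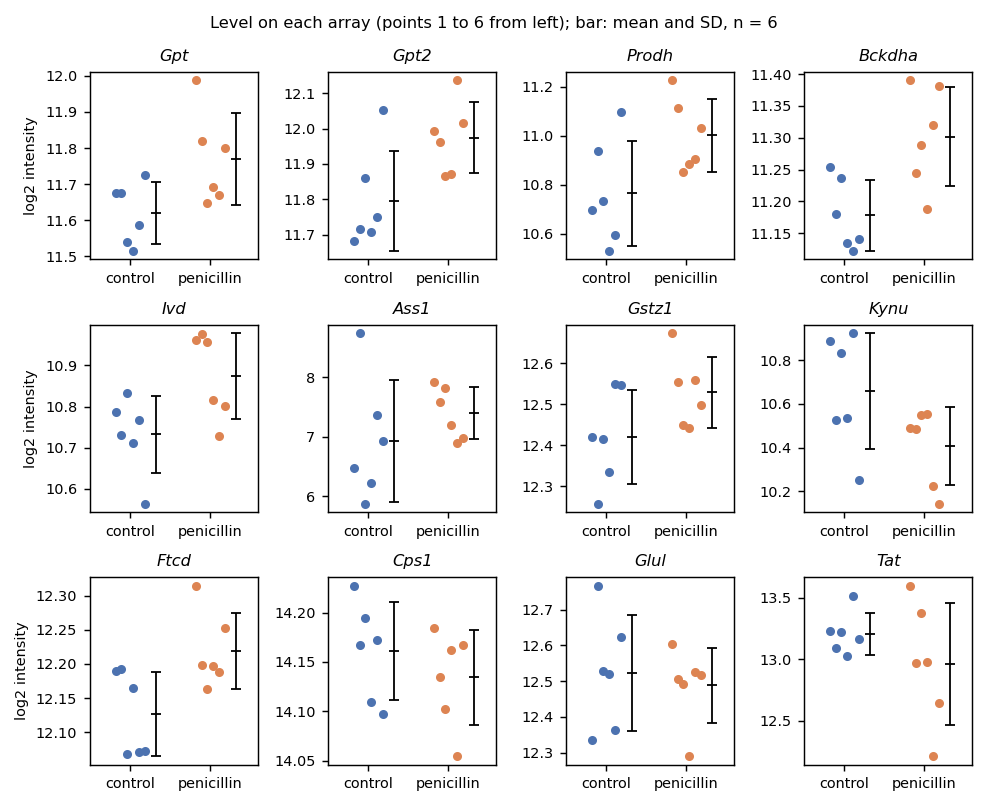
Log2 intensity on each array (vertical axis, own scale in each panel) for 12 of the members given array by array in the text (Got1, Hal and Amdhd1 are left out), controls on the left and penicillin on the right. Points are arrays 1 to 6 from left to right and the bar gives the mean and SD of 6 arrays. The groups overlap in every panel, and in every panel the range within each group exceeds the distance between the group means.

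Of 4 genes of histidine breakdown, 1 was higher and 3 lower. Ftcd, the bifunctional enzyme that passes the last carbon of histidine to folate, stood at 12.19, 12.19, 12.07, 12.16, 12.07 and 12.07 in controls 1 to 6 and at 12.31, 12.20, 12.16, 12.20, 12.19 and 12.25 in penicillin 1 to 6. The controls formed a lower and an upper group of 3, and 4 of the penicillin arrays lay above all controls, 2 of them by less than 0.01. The difference was 0.093 (95% interval -0.012 to 0.20, adjusted p = 0.676 with limma). Uroc1, the urocanase, differed by -0.043 (95% interval -0.16 to 0.076). Hal, the histidine ammonia lyase that starts the route, stood at 12.03, 12.12, 11.82, 12.02, 11.45 and 11.17 in controls 1 to 6 and at 11.31, 11.88, 11.61, 12.02, 11.43 and 11.63 in penicillin 1 to 6. Amdhd1, the imidazolonepropionase that acts on the third step, stood at 11.38, 11.51, 11.24, 11.46, 11.09 and 10.93 in controls 1 to 6 and at 10.98, 11.42, 11.14, 11.54, 11.10 and 11.28 in penicillin 1 to 6. The same arrays were high for both, control 2, penicillin 4 and control 1 among them, and control 6 and penicillin 1 were the lowest for both. The groups overlapped for both, with differences of -0.12 (95% interval -0.49 to 0.25) and -0.023 (95% interval -0.28 to 0.23), or -0.053 and 0.032 without the 4 arrays with the highest Dbp.

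Across the 12 arrays Hal and Amdhd1 moved more closely together than any other pair of members. Pearson's r was 0.964 and Spearman's rho 0.930 (permutation test with 100000 resamples, two-sided, p = 1e-05, the smallest these can give, and p = 6e-05). Adjusted over the 11898 other genes set against Hal, these were 0.0397 for r, under 0.05, and 0.238 for rho, above it. The pair was picked from all pairs of members for its high r, and the adjustment does not cover that choice. These p-values therefore describe the pair and are no test of it. Within the controls r was 0.983 and within the penicillin group 0.981, and without control 6 and penicillin 1, the arrays farthest from the median of Hal, it was 0.934. Of all 11898 other genes, Amdhd1 had the highest r with Hal, and Hal had the highest r with Amdhd1. The next highest r with Hal were those of Plxna2 (0.921), Crebzf (0.920) and Slc9a8 (0.912), which are not members. A high r with Hal was therefore not limited to Amdhd1. A dimmer probeset of Amdhd1, at a mean of 8.39, correlated with Hal at 0.926. In the RefSeq annotation of assembly GRCm38.p6 the 2 genes lie next to each other, run toward each other on opposite strands and do not overlap, with 0 annotated genes between them. The rest of the pathway was less close, with r of 0.563 between Hal and Uroc1 and 0.10 between Hal and Ftcd.

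Of 630 pairs of measured members, 3 (0.476%) reached an r of 0.85, against 0.151% of all pairs of genes, and the median over member pairs was 0.202. The limit of 0.85 was set after the values were seen. All 3 pairs were picked for their r, so the p-values given with them are no test of them. Besides Hal and Amdhd1 these were Aldh4a1 with Mccc1 and Gpt with Prodh. For Hal, 23 genes of all those tested reached an r of 0.85. Aldh4a1 and Mccc1, mitochondrial enzymes of proline and leucine breakdown from different chromosomes, had r = 0.924 and rho = 0.916 (permutation p = 3e-05 and 6e-05, or 0.0397 and 0.0529 adjusted over all genes set against Aldh4a1). Their r was 0.956 in controls, 0.941 with penicillin and 0.893 without control 6 and control 4. Mccc1 had only the 5th highest r with Aldh4a1, for which 34 genes reached 0.85. However, a dimmer probeset of Mccc1 correlated with Aldh4a1 at 0.484 and with the brighter probeset of Mccc1 itself at 0.480. Gpt and Prodh had r = 0.890 and rho = 0.909 (permutation p = 7e-05 and 1.4e-04, or 0.204 and 0.238 adjusted over all genes set against Gpt, both above 0.05). The r of Gpt and Prodh was 0.810 in controls, 0.976 with penicillin and 0.825 without penicillin 1 and control 4. A dimmer probeset of Gpt correlated with Prodh at 0.667 and with the brighter probeset of Gpt itself at 0.661. Prodh had the 3rd highest r with Gpt, for which 8 genes reached 0.85. The points of all these relations share the normalization of the 12 arrays, whose part in them was not tested.

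**Figure D3:**
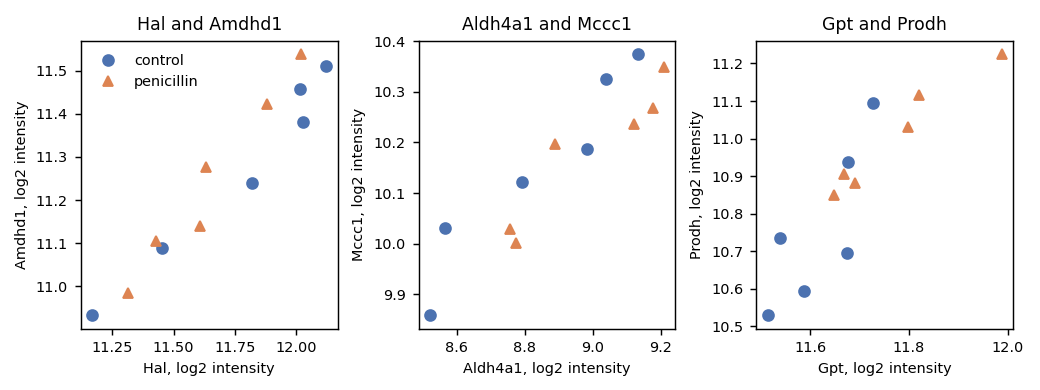
Log2 intensity of 1 member against another for the 3 pairs with r of at least 0.85, with 1 point for each of 12 arrays (circles: control, triangles: penicillin). In each panel the members rise together within both groups. For Hal and Amdhd1 the groups share the whole range, and for Gpt and Prodh penicillin 1 is the highest point.

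The promoters of the 2 pairs with the highest r are shown to set their sequences side by side. Each is the 250 bases before the annotated start of the gene, 5′ to 3′ on its strand, from RefSeq with build GRCm38.p6. Capitals mark matches to the motifs searched. Promoters were found for 31 of the 40 members. The Hal window is chr10:93488518-93488767 on the plus strand, that of Amdhd1 is chr10:93540034-93540283 on the minus strand, that of Aldh4a1 is chr4:139622644-139622893 on the plus strand and that of Mccc1 is chr3:36000679-36000928 on the minus strand.
Hal: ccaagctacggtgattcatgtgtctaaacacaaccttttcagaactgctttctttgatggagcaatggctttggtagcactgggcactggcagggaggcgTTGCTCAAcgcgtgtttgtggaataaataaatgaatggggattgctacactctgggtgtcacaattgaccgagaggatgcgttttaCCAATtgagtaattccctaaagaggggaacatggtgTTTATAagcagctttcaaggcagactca
Amdhd1: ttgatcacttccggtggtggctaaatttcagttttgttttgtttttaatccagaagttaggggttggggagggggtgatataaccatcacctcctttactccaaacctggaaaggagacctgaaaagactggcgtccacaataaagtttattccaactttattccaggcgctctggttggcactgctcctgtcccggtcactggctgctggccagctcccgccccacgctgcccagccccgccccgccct
Aldh4a1: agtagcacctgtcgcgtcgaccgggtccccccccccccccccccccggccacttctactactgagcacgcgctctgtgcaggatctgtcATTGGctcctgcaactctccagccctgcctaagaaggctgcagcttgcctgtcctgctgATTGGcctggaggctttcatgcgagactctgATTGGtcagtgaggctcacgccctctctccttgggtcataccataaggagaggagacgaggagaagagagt
Mccc1: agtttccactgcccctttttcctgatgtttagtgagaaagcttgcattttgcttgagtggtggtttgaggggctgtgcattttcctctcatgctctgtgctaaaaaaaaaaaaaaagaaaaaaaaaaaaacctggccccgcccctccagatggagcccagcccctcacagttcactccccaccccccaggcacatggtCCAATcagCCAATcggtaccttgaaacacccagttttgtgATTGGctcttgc

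The motifs were searched on both strands, and matches of different motifs did not overlap in these windows. The Hal window held a TATA box (TATAAA, 12.4% of 32851 promoters of this length), a site of the liver factor family C/EBP (TTNNGCAA, 9.56%) and a CCAAT box (CCAAT, 33.8%). The TATA box match lay 28 to 23 bases before the start, with its letters on the opposite strand. The Amdhd1 window held 0 matches to any motif searched. The windows of Aldh4a1 and Mccc1 each held 3 CCAAT boxes, a count reached by 2.79% of all promoters and by 5 of the 31 members, the others being Got1, Ivd and Tat. The CCAAT box was added after the sequences were seen. Among all 31 members, 5 held the TATA box (Ftcd, Got2, Hal, Hgd and Tdo2), 4 the C/EBP site and 15 the CCAAT box. The cyclic AMP response element (TGACGTCA, 1.55% of promoters) and the D-box of clock output factors (TTATGTAA, 0.819%) matched in 0 members, and AGAACA, an arm of the glucocorticoid response element (16.1%), in Bckdhb and Haao. These are matches of letters in short windows and say nothing of binding.

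The arrays differed in how often they were the highest or lowest for these genes. Penicillin 1 was the highest of the 12 arrays for 16 of 36 members (44.4%) and the lowest for 0, whereas over all genes it was highest for 8.55% and lowest for 14.0%. Control 4 was the lowest for 8 members (22.2%), against 5.94% of all genes, and highest for 1. The mean deviation over the 36 members was 0.14 for penicillin 1 and -0.12 for control 4, and ran from -0.095 (penicillin 5) to 0.069 (penicillin 2) on the other 10. Both groups therefore held arrays above and below the mean. Without penicillin 1 the median difference of the members was 0.023.

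**Figure D4:**
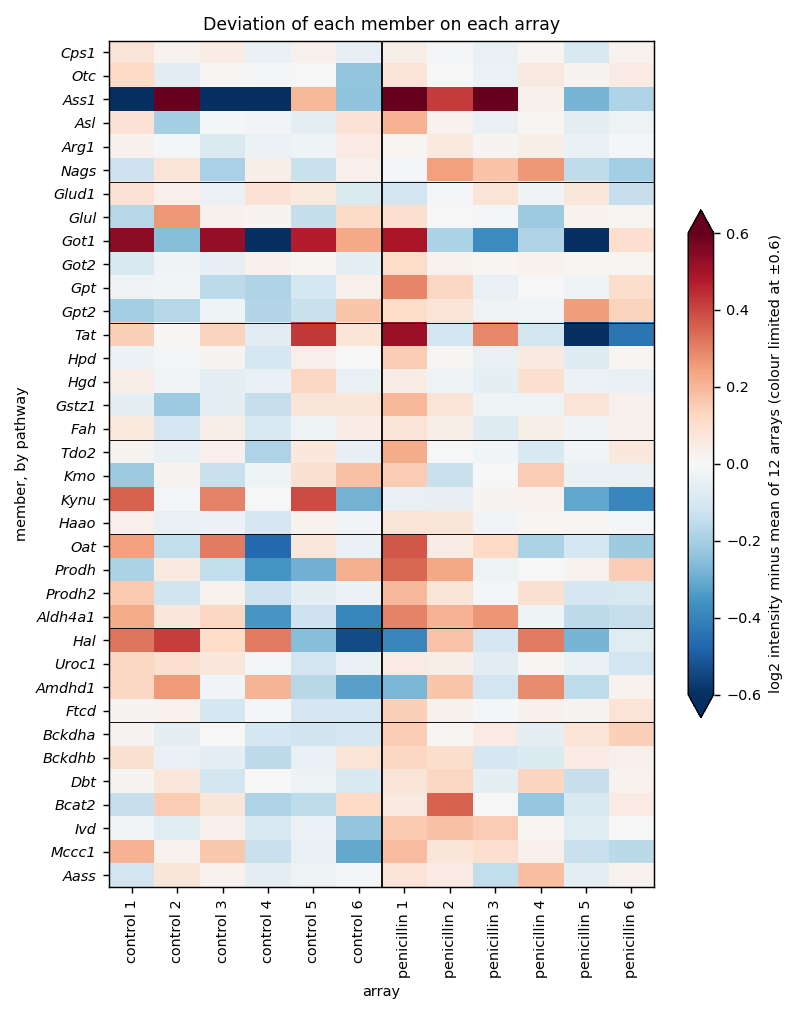
Deviation of log2 intensity from the mean of the 12 arrays (colour, limited at ±0.6) for the 36 measured members in order of pathway (rows) on each array (columns, controls left of the line). Penicillin 1 is red in most rows and control 4 blue in many, and Ass1, Got1, Tat and Hal carry the deepest colours.

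Of 65 further genes of these pathways, 55 were measured. They had 38 higher and 17 lower and a median difference of 0.053, or 0.11 with the immediate early score as a covariate and 0.089 when control 1, control 3 and control 5 were left out. Limma called 0 at an adjusted p of 0.05. At an unadjusted p under 0.05 there were 8, all higher, among the 55 (515 of all genes, 4.33%, on the higher side), and 5 without control 1, control 3 and control 5. Genes of branched-chain breakdown made up 4 of the 8. Of the 16 measured there, 14 were higher and 2 lower, with a median of 0.082. Hibch, a hydrolase of valine breakdown, stood at 9.91, 9.93, 9.86, 9.92, 9.87 and 9.89 in controls 1 to 6 and at 10.10, 9.98, 9.93, 10.10, 10.17 and 9.97 in penicillin 1 to 6, with all penicillin arrays above all controls and a gap of less than 0.01 between the groups. Its difference was 0.15 (SE 0.052, adjusted p = 0.570 with limma). Hsd17b10, a dehydrogenase of isoleucine breakdown, was higher by 0.25 (SE 0.097), and Mccc2, the partner subunit of Mccc1, by 0.12 (SE 0.048). Ppm1k, the phosphatase that switches the branched-chain dehydrogenase on, was the last of the 4, higher by 0.17 (SE 0.077), or 0.098 without control 1, control 3 and control 5. Acat1, a thiolase listed here with the aromatic routes and shared with ketone metabolism, was higher by 0.18 (SE 0.064). In tryptophan breakdown Afmid, the formamidase between Tdo2 and kynurenine, stood at 9.84 to 10.28 in controls and 10.26 to 10.70 with penicillin and was higher by 0.30 (SE 0.097, adjusted p = 0.558 with limma). Ido2, a relative of the route's first enzyme, was higher by 0.22 (SE 0.099). Among genes that supply the urea cycle, Car5a, the mitochondrial carbonic anhydrase that provides bicarbonate to Cps1, was at 9.98 to 10.20 in controls and 10.29 to 10.64 with penicillin. Every penicillin array lay above every control, which held for 2 of the 55 further genes and 0.261% of all genes. The difference of Car5a was 0.34 (SE 0.064, adjusted p = 0.265 with limma). The mitochondrial carriers Slc25a15 (ornithine) and Slc25a13 (aspartate and glutamate) differed by -0.088 (95% interval -0.25 to 0.077) and 0.051 (95% interval -0.12 to 0.22).

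Genes known to control amino acid breakdown gave no common direction. Of 12, 7 were higher and 5 lower, and limma called 0 at an adjusted p of 0.05, with 5 at an unadjusted p under 0.05, 3 higher and 2 lower (7.98% of all genes, 4.33% higher and 3.66% lower). Cebpa, a transcription factor of hepatocytes, was higher by 0.26 (SE 0.098, adjusted p = 0.571 with limma), and the mitochondrial deacylases Sirt5 and Sirt3, which act on Cps1 and Otc among other proteins, by 0.23 (SE 0.081) and 0.19 (SE 0.080). Without control 1, control 3 and control 5 these were 0.14 for Sirt5 and 0.11 for Sirt3. Creb1, a factor of the glucagon response, differed by -0.17 (SE 0.056) and Atf4, the factor of the amino acid response, by -0.45 (SE 0.18). Atf4 was highest in control 3 and control 1, at 11.44 and 11.43, and its difference was -0.14 without control 1, control 3 and control 5. Klf15, a factor that drives amino acid breakdown in fasting, differed by 0.030 (95% interval -0.33 to 0.40) and Gcgr, the glucagon receptor, by 0.022 (95% interval -0.079 to 0.12). Klf15 was highest in penicillin 1, at 11.35, and lowest in penicillin 5, at 10.19, the arrays where Tat was highest and lowest.

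Markers of other liver cell types are given beside these values, since the members are mainly hepatocyte genes. The mean log2 level of 5 of 7 bile duct markers was 5.62 to 6.23 in controls and 4.99 to 5.62 with penicillin. For 3 of 7 neutrophil markers it was 5.48 to 7.17 in controls and 4.45 to 5.30 with penicillin, with no overlap of this mean. Only 2 of these 3 markers had every penicillin array below every control (0.151% of all genes), and the difference nearest 0 among the 3 was -0.034. Markers of Kupffer cells (10 of 10) were at 9.18 to 9.77 in controls and 9.12 to 9.53 with penicillin, those of endothelial cells (8 of 8) at 7.62 to 8.09 in controls and 7.59 to 7.92 with penicillin and those of stellate cells and fibroblasts (8 of 9) at 8.56 to 9.25 in controls and 8.29 to 9.14 with penicillin. Markers of B and plasma cells (2 of 5) were at 5.01 to 5.92 in controls and 5.37 to 5.93 with penicillin, and those of T and NK cells (4 of 7) at 5.25 to 5.50 in controls and 5.39 to 5.56 with penicillin. RMA intensities are never 0 here and come without detection calls. The part of these cell types in the differences of the members was not tested.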

How the data were processed

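Liver RNA of 12 mice was measured on 12 arrays. The authors deposited an intensity for each probeset, computed by RMA as the submitters' processing notes say, with no software or version named in the sources used here. RMA brings all arrays to the same distribution and would remove a shift common to most genes. The values are linear, so log2 was taken first.

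The table held 45101 probesets, 64 of them controls. The platform annotation names 1 gene for 34945 of the rest, several for 932 and none for 9160. Symbols were updated by gene identifier with RefSeq genes of GRCm38.p6 (18032 identifiers found, 162 not found). Probesets with a mean under the median of all others than controls were left out, and each gene took its brightest probeset. Penicillin was compared with control by limma 3.58.1 in R 4.3.3 (empirical Bayes, two-sided) on 11899 genes, with Benjamini-Hochberg adjustment over all of them and a threshold of 0.05; standard errors and 95% intervals are from this fit. Correlations used all arrays, with permutation tests. The number of arrays limits precision. The test was run on simulated data. The members and lists were chosen with earlier results of these data known. By rule, members given array by array had an unadjusted p under 0.05, the smallest p of their pathway, or were Cps1, Ass1, Glul and Tat (Sds had no probeset); of further and regulator genes, the 12 with the smallest p under 0.05 were named by rule. Got1, Hal and Amdhd1, also given array by array, Ppm1k, Klf15, Gcgr, Slc25a15, Slc25a13 and the pairs were named after their values were seen.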

Additional observations from a re-analysis of the deposited data

Results flagged for a closer look

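Values of 48 genes were examined in both groups for an array far from the other 5 of its group, where the gap to the nearest array, as a share of the group's range, exceeded Dixon's 95% critical value for 6 samples. Of 96 gene and group combinations 3 (3.12%) were past this limit, and chance gives about 1 in 20 groups. For Asl penicillin 1 was the highest of its group at 12.60, with the next array at 12.42 and the lowest at 12.34. For Got2 penicillin 1 was the highest at 12.92, with the next at 12.83 and the lowest at 12.82. For Glul penicillin 4 was the lowest at 12.29, with the next at 12.49 and the highest at 12.60.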

How the results depend on the processing

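With limma 0 genes passed an adjusted p of 0.05 with every array, without any 1 array and under each of 12 other settings, and the smallest adjusted p of a named gene under any of them was 0.121. The settings were other scalings, filters, probeset choices and variance estimates, the replicate block, and fits that leave out or adjust for the arrays that stood apart. The shared Ass1 probeset and the checks of correlated pairs were chosen after seeing the data. The count of members at an unadjusted p under 0.05 (5) was 0 to 5 without 1 array, 2 with the mean or the most variable probeset of a gene, 2 without the arrays with high immediate early genes (control 1, control 3 and control 5), and 3 without the arrays with high Dbp or with the immediate early score as covariate. For all genes (950) it was 671 to 1244 without 1 array, 488 without the immediate early arrays and 540 with the covariate, and for further genes (8) 6 to 9 and 5 without those arrays. The median difference of the members ran from 0.023 to 0.059 without 1 array, and was 0.060 without the immediate early arrays and 0.067 with the covariate. That of the further genes was 0.11 with the covariate. The cause of these shifts was not tested, and the fits that leave arrays out also hold fewer arrays. The covariate itself differed between the groups, so the fit with it cannot tell its part from that of penicillin.

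Of the 36 members 23 kept their sign throughout, and Bcat2 had no value with the filter at the 75th percentile. Ass1 differed by -0.010 on the probeset shared with Gm5424. Without the immediate early arrays the sign turned for Cps1 (0.0096), Got1 (0.086), Hgd (0.032), Kmo (-0.041) and Bcat2 (-0.0074). With the covariate it turned for Cps1 (0.021), Nags (-0.0097), Got1 (0.19), Hgd (0.032) and Kmo (-0.061). Without the arrays with high Dbp it turned for Otc (-0.0039), Tdo2 (-0.014), Oat (-0.012) and Amdhd1 (0.032). Hgd also turned after quantile normalization (0.015), after centring (0.0028), with the mean of its probesets (0.21) and with the most variable probeset (0.43, and 0.0015 for Amdhd1). With array weights Oat was -0.060 and Mccc1 -0.023. Leaving out 1 array gave -0.091 to 0.029 for Amdhd1, -0.023 to 0.094 for Bcat2, -0.072 to 0.015 for Glul, -0.023 to 0.021 for Hgd, -0.0098 to 0.069 for Kmo, -0.028 to 0.076 for Mccc1 and -0.084 to 0.072 for Oat. With the replicate number as a block 7 members, 10 further genes and 1214 of all genes had an unadjusted p under 0.05 and 0 were called. Same-numbered mice deviated together, at an r above 0.1, in 4 of 6 pairs (r from -0.26 to 0.39), and 3 of 6 correlated best with their own number. The labels name no pairing, so the main fit used none. Whether the numbers mark a shared cage, litter or batch is not settled by these values. RMA values come with no detection calls, so how far a low signal exceeds background is unknown.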

Other observations

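Genes of glycine, serine, lysine and sulfur amino acid metabolism, taken from the list of further genes, showed no common direction. Of 14 measured, 7 were higher and 7 lower with penicillin, with a median difference of 0.0055 on the log2 scale, and limma called 0 at an adjusted p of 0.05 (0 at an unadjusted p under 0.05). Csad, which makes hypotaurine on the way to taurine, had the largest difference of the group, 0.64, with means of 11.66 ± 1.00 with penicillin and 11.01 ± 1.12 in controls (SD, n = 6). Its values ran from 10.03 to 12.65 in controls and from 9.77 to 12.29 with penicillin, so the spread within each group exceeded the difference. The direction turned without control 1, control 3 and control 5, the arrays with high immediate early genes: the difference of Csad was then -0.11, and without the 4 arrays with the highest Dbp it was 1.07. Cdo1, which makes the substrate of Csad, differed by -0.069 (95% interval -0.19 to 0.048), and the cystathionine enzymes Cbs and Cth by -0.19 (SE 0.18) and -0.062 (SE 0.11), or -0.058 and 0.083 without those 3 controls. Dhtkd1 and Pipox, both of lysine breakdown, were higher by 0.24 (SE 0.13) and 0.11 (SE 0.060), or 0.15 and 0.071 without those 3 controls.

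Asns, the asparagine synthetase that answers amino acid shortage, was uneven in both groups. It stood at 6.74, 6.79, 6.72, 7.35, 8.87 and 7.45 in controls 1 to 6 and at 6.94, 6.91, 8.66, 6.51, 7.47 and 6.12 in penicillin 1 to 6. Control 5 and penicillin 3 stood highest, more than 1 log2 unit above the rest, and the group difference was -0.22 (95% interval -1.16 to 0.73), or 0.070 without the arrays with the highest Dbp. Markers of the zones of the liver lobule lay in overlapping ranges. The mean log2 level of 7 periportal markers was 11.64 to 11.93 in controls and 11.64 to 11.81 with penicillin, and that of 10 pericentral markers was 9.88 to 10.23 in controls and 9.95 to 10.32 with penicillin. These genes were named after their values were seen.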
